A study of Mus musculus with 2 samples.

Results

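The 39 cell cycle genes described here span G1, the G1/S step, S phase and G2/M, and were taken as a given list from the 31053 genes of the table, of which 16331 had at least 1 UMI. UMIs are unique molecular identifiers, each counting 1 captured transcript. The libraries were made from mouse C57BL/6 hepatocytes isolated by liver perfusion, with the 3′ droplet method of 10x Genomics. The control carried the genotype LaptTA;WT, a tetracycline transactivator under the liver-restricted LAP promoter with no inducible transgene. The tetYAP 4W library carried LaptTA; tetYAP, in which the same transactivator drives the YAP S127A mutant. In that line transgene expression was held off by doxycycline in the food until the mice were 4 weeks old, and the induced sample was taken 4 weeks after induction. With 1 library in each group there is no replicate check and no p-value, and every interval given is a 95% counting interval.

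Cyclins and their kinases drive the cell cycle. D-type cyclins act in G1, cyclin E at entry into S phase, cyclin A in S phase and G2, and cyclin B at mitosis. Genes of DNA replication are expressed around S phase and genes of the mitotic spindle in G2 and M, so the RNA of a dividing cell shows where it stands in the cycle. Hepatocytes of the adult liver are mostly quiescent but can re-enter the cycle, whereas resident macrophages, lymphocytes and endothelial cells can each divide on their own account. S127A removes a phosphorylation site through which the Hippo pathway holds YAP in the cytoplasm.

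The control held 2989 barcodes with a median of 3117 UMIs, and tetYAP 4W held 1524 barcodes with a median of 4150. These were the barcodes left below an upper UMI limit set by the study, so shares and medians cover those only. Mitochondrial transcripts took a median of 28.1% and 37.7% of the UMIs of a barcode. No cell barcode was shared between the libraries (0). Xist, which is transcribed in female cells, had 3 control and 4859 tetYAP UMIs, and transcripts of Uty, Kdm5d, Eif2s3y and Ddx3y, all Y-linked, summed to 716 and 0. The animals therefore differed in sex as well as in genotype, and these cannot be told apart. Yap1 itself had 155 and 128 UMIs, and whether transgene transcripts could be assigned to it is not stated in the sources used here.

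Barcodes were clustered without the listed genes and named from markers. In the control 2703 barcodes were hepatocyte-like, 166 endothelial cell-like, 56 stellate or mesenchymal cell-like, 42 macrophage-like and 14 T or NK cell-like. In tetYAP 4W there were 674 hepatocyte-like and 273 macrophage-like barcodes, with 131 T or NK cell-like, 123 endothelial cell-like, 65 monocyte or neutrophil-like, 46 B cell-like, 38 erythroid cell-like and 21 stellate or mesenchymal cell-like ones. A further 153 tetYAP barcodes, of cluster 7, were left unnamed. Of 12 endothelial markers 1 was raised there, too few for a name. Yet these markers had 9.65 UMIs per barcode, against 0.544 in the lowest hepatocyte-like tetYAP cluster. Platelet genes led these barcodes. The control part of cluster 7, with 55 barcodes, was named endothelial cell-like. The label hepatocytes thus covered 44.2% of the tetYAP barcodes. Hepatocyte-like barcodes came from different clusters in the libraries (0 to 4 in the control, and 14, 15 and 16 in tetYAP 4W). The name means that no markers of another class were raised. For cluster 16, with 480 of the 674 tetYAP barcodes, the leading genes by fold go against it, since 7 of 10 that lead are of pancreatic enzymes and secretion. These 7 had 167 UMIs there, in 5.42% of its barcodes, beside a median of 378.5 hepatocyte marker UMIs per barcode, and results without the cluster are given further on. The hepatocyte markers were high in every tetYAP class, with a median of 376 UMIs in hepatocyte-like, 307 in T or NK cell-like and 289 in erythroid cell-like barcodes. Hepatocyte transcripts were therefore counted in barcodes of all classes. Macrophage markers had 8.63 UMIs per 10000 in the hepatocyte-like tetYAP barcodes, 10.4 in B cell-like and 12.5 in erythroid cell-like ones, against 185 in macrophage-like ones. In the control they had 0.271 in hepatocyte-like and 95.1 in macrophage-like barcodes. Transcripts of other cells in hepatocyte-like barcodes thus differed between the libraries, and their part in the ratios given below was not tested.

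RefSeq windows on GRCm38.p6, from 250 bases before to 50 after the transcription start, were found for 31 of the 39 genes. The cell cycle homology region (CHR, TTTGAA or TTCGAA) and the CCAAT box are elements known from promoters active in G2/M, and the E2F site (TTTCCCGC, TTTCGCGC, TTTGCCGC or TTTGGCGC) from promoters of replication genes. Each motif was searched on both strands with overlapping matches allowed. A CHR stood in 11 of 13 G2/M windows, against 19.2% of all 32851 promoter windows. The CCAAT box was found in 12 of the 13, against 37.4%, and both elements in 11, against 7.52%. Among the 10 windows of the S genes, 4 held an E2F site, against 2.26% of all windows, 8 held a CCAAT box and 2 a CHR. The CCAAT box was thus common in both groups. The motif bound by the TEAD partners of YAP (GGAATG) was in 4 of the 34 windows of all listed genes, against 14.7% overall. The sequences that follow are the promoters of the mitotic cyclin gene Ccnb2 (chr9:70421505-70421804, minus strand), of its kinase Cdk1 (chr10:69352863-69353162, minus strand), of the topoisomerase gene Top2a (chr11:99024140-99024439, minus strand) and of the helicase gene Mcm5 (chr8:75109259-75109558, plus strand). Each is written from 5′ to 3′ along its gene, with CHR, CCAAT and E2F matches in capitals.
Ccnb2: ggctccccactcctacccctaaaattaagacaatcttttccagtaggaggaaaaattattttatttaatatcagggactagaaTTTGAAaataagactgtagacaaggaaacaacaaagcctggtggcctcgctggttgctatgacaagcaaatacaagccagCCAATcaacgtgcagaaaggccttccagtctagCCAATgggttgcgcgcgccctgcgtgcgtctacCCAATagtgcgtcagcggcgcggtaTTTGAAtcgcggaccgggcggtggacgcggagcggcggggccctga
Cdk1: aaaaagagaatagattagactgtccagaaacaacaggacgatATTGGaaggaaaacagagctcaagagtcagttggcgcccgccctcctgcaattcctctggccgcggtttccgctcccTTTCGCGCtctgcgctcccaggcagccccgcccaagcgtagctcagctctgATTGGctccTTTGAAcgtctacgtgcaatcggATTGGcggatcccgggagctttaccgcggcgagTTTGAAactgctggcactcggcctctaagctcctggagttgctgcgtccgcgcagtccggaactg
Top2a: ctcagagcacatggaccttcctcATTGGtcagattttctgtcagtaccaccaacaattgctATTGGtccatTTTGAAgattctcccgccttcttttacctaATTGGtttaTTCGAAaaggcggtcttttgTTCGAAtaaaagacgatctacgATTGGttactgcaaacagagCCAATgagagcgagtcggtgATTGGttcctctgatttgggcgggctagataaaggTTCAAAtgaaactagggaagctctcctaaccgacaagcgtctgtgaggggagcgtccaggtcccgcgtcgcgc
Mcm5: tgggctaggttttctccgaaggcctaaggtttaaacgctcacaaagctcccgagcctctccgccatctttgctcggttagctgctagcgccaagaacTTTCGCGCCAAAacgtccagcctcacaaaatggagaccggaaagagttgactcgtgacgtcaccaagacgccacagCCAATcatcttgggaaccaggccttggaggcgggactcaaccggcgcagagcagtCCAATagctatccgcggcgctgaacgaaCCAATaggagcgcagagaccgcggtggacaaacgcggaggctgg
Ccnb2 had 2 CHR and 3 CCAAT matches, and Top2a had 4 and 6. Cdk1 had 2 CHR matches, 3 CCAAT matches and 1 E2F match. Mcm5 had no CHR match, 3 CCAAT matches and 2 overlapping E2F matches. A match describes the letters only, and binding of a factor was not measured here.

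The listed genes took 2663 of the control UMIs and 7297 of the tetYAP UMIs, which is 0.028% and 0.108% of each library. In the control 38 of the 39 were detected, with the kinetochore gene Cenpf at 0, and in tetYAP 4W all 39. The rise was uneven between phases. The 10 S genes had 328 control and 822 tetYAP UMIs, with a log2 ratio of 1.81 (1.63 to 2.0) on the scale of CPM (UMIs scaled to a common library total). The 16 G2/M genes had 86 and 1080 UMIs, a log2 ratio of 4.14 (3.82 to 4.47). G2/M transcripts thus made up 20.8% of the control S and G2/M UMIs (17.0 to 25.0) and 56.8% of the tetYAP ones (54.5 to 59.0). Most control S UMIs were of Tyms, Tk1, Mcm7 and Pcna, with 80, 75, 57 and 55, whose log2 ratios were 0.45 to 1.38. Mcm2 to Mcm6 had 5 to 16 control UMIs and ratios of 3.07 to 4.63, and Rrm2 had 15 and 2.23. The S ratio and the control share of G2/M thus rest largely on Tyms, Tk1, Mcm7 and Pcna.

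Over all barcodes, 29 of the 39 genes were higher in tetYAP 4W, where 23.9% of the 12621 genes compared were. Higher means here that the interval lay wholly above 2-fold, in genes with at least 10 UMIs over both libraries, and counts under 3 were set to 3 in the ratio. All 16 G2/M genes were among them, with 6 of the 10 S genes, and no listed gene was lower, where 3.76% of all genes were. Of the 39 genes 10 had 3 or fewer control UMIs, and 9 of these were G2/M genes. They could enter the comparison only through their tetYAP counts and could not be called lower. The median log2 ratio of the list was 3.08, against 0.60 for all genes. Within hepatocyte-like barcodes 34 listed genes had enough UMIs and 18 of these were higher, against 6.86% of the 10688 genes compared. There 14 of 15 G2/M genes were higher and 1 of 8 S genes. The median log2 ratio of the 34 was 2.60, against -0.21 for all genes, with 12 of the 34 at or under 3 control UMIs. With totals taken without mitochondrial and the 50 most abundant genes, the median of all genes was 0.39 and every ratio in hepatocyte-like barcodes stood higher by the same step, so that negative ratios closer to 0 than that step change sign. Within macrophage-like barcodes 1 of 33 listed genes was higher, against a background of 0.41%, and 0 were lower, against 1.1%. The median was 0.06, against -0.34 for all genes, with 24 of the 33 at or under 3 control UMIs.

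**Figure D1:**
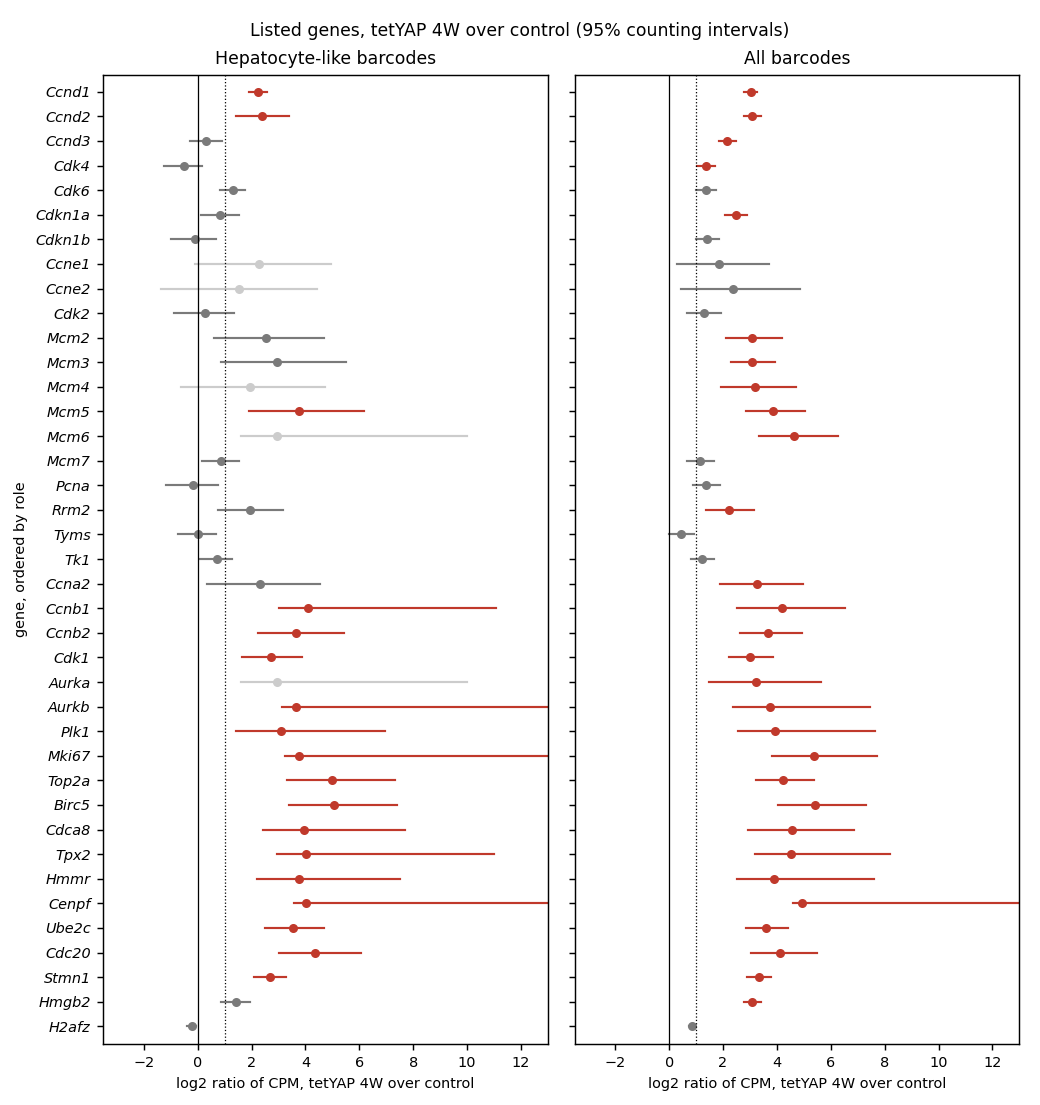
Log2 ratios of CPM, tetYAP 4W over control, for each listed gene in hepatocyte-like barcodes (left) and in all barcodes (right), ordered by role. Points are ratios and lines 95% counting intervals, cut at the right edge where a control count of 0 gives no upper bound. Red genes have an interval wholly above 2-fold (dotted line), and pale grey genes had under 10 UMIs. In hepatocyte-like barcodes red marks 14 G2/M genes but 1 S gene, Mcm5.

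Of the members, 5 had under 10 UMIs in hepatocyte-like barcodes (Ccne1, Ccne2, Mcm4, Mcm6 and Aurka), and the 12 at or under 3 control UMIs could enter the comparison only through their tetYAP counts. Summed over all members of a phase, with none left out, the hepatocyte-like barcodes had 257 control and 166 tetYAP S UMIs, a log2 ratio of 0.89 (0.60 to 1.18). They had 50 and 324 G2/M UMIs, a log2 ratio of 4.22 (3.79 to 4.68). Of the 257 control S UMIs, Tyms and Tk1 gave 69 each, Mcm7 51 and Pcna 42, so the S ratio rests largely on these genes. Endothelial cell-like barcodes came from clusters 6, 7 and 10 in the control and from cluster 10 in tetYAP 4W. They showed the same order, with 33 and 125 S UMIs (1.71, 1.14 to 2.31) and 8 and 156 G2/M UMIs (4.07, 3.06 to 5.31). The barcodes compared were unlike. Control cluster 6, with 106 of the 166 barcodes, had 3.509 endothelial marker UMIs per barcode, against 59.967 in tetYAP cluster 10. Cluster 6 had 0.316 S UMIs per 10000 and control cluster 7 had 0.677, against 0.304 in control hepatocyte-like barcodes. The tetYAP part of cluster 7, left unnamed, was not included. Whether endothelial cells themselves changed was not tested. In macrophage-like barcodes the S sum was 27 and 281 UMIs, and its log2 ratio of 0.43 (-0.14 to 1.06) included no change. Their G2/M sum of 21 and 298 UMIs gave 0.88 (0.24 to 1.60). Of the 48 control S and G2/M UMIs, 28 came from 1 of the 42 barcodes. Without that barcode the control sums were 13 and 7 UMIs and the log2 ratios 1.42 (0.62 to 2.35) and 2.40 (1.34 to 3.73), so both ratios above rest on it. The control macrophage-like barcodes held S and G2/M transcripts at 3.11 UMIs per 10000 (2.29 to 4.12), or 1.36 (0.829 to 2.10) without that barcode, against 0.363 (0.324 to 0.406) in the control hepatocyte-like ones. Fewer dividing cells of a class and fewer cycle transcripts per cell cannot be told apart in such sums.

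Among the G1 members, Ccnd1, the D-type cyclin known from liver regeneration, had 117 control and 191 tetYAP UMIs in hepatocyte-like barcodes (log2 ratio 2.23, 1.89 to 2.58). Per 100 tetYAP barcodes it had 28.3 UMIs (24.5 to 32.7) where hepatocyte-like, 121 (109 to 135) where macrophage-like and 184 where endothelial cell-like. The hepatocyte-like level was close to the 27.4 (17.4 to 41.1) of B cell-like and erythroid cell-like barcodes pooled. Ccnd2, the D-type cyclin prominent in lymphocytes, rose from 15 to 27 UMIs in hepatocyte-like barcodes (2.37, 1.41 to 3.39). Its highest tetYAP levels were 194 per 100 T or NK cell-like and 152 per 100 endothelial cell-like barcodes, against 4.01 in hepatocyte-like ones. Ccnd3 had 83 and 36 UMIs in hepatocyte-like barcodes (0.32, -0.29 to 0.90), and the level of 73.8 per 100 monocyte or neutrophil-like barcodes was its highest. The kinases that pair with D cyclins had no call. Cdk6 had 82 and 70 UMIs (1.30, 0.81 to 1.77) and Cdk4 had 90 and 22 (-0.51, -1.25 to 0.18). Cdk6 was the G1 member with the largest share of its tetYAP UMIs in hepatocyte-like barcodes, 41.7%, against 4.45% for Ccnd2. In macrophage-like barcodes Ccnd1 was the 1 listed gene that was higher, with 10 and 331 UMIs (2.10, 1.21 to 3.18).

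The inhibitors showed no call in hepatocyte-like barcodes. Cdkn1a, the p21 inhibitor induced by p53, had 48 and 30 UMIs (0.85, 0.14 to 1.53), and Cdkn1b, the p27 inhibitor of quiescent cells, 53 and 17 (-0.12, -1.0 to 0.69). Over all barcodes Cdkn1a rose from 61 to 241 UMIs (2.47, 2.06 to 2.90). Per 100 tetYAP barcodes Cdkn1a stood at 70.7 in endothelial cell-like, 41.5 in monocyte or neutrophil-like and 24.5 in macrophage-like barcodes, and at 4.45 in hepatocyte-like ones. Cyclin E and its kinase were sparse. Ccne1 had 5 and 13 UMIs in the whole libraries, Ccne2 had 3 and 11, and Cdk2 had 34 and 59. In hepatocyte-like barcodes Cdk2 had 26 and 11 UMIs (0.28, -0.88 to 1.35), so that a change was not detectable at this depth.

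The S members split into genes with very few control UMIs and genes with more. Mcm2, Mcm3, Mcm4, Mcm5 and Mcm6, subunits of the replicative helicase, had between 1 and 4 control UMIs each in hepatocyte-like barcodes and 4 to 14 in tetYAP 4W. Of these Mcm5 was higher, with 3 and 14 UMIs (3.75, 1.91 to 6.19). Mcm7, a subunit of the same complex, had 51 and 32 UMIs (0.85, 0.17 to 1.52). Pcna, the sliding clamp of DNA polymerase, had 42 and 13 (-0.17, -1.19 to 0.76). Among the genes of nucleotide supply, the thymidylate synthase gene Tyms had 69 and 24 UMIs (0.00, -0.73 to 0.69). The thymidine kinase gene Tk1 had 69 and 39 (0.70, 0.10 to 1.29). Rrm2, of ribonucleotide reductase, had 12 and 16 (1.94, 0.77 to 3.15). The helicase genes were counted mostly outside hepatocyte-like barcodes. In tetYAP 4W Mcm3 had 35 UMIs in macrophage-like and 8 in hepatocyte-like barcodes, and Mcm6 had 36 and 8. Of the 7 licensing and clamp genes, 6 had a macrophage-like level per barcode whose interval lay above the hepatocyte-like one. Mcm7 was the exception, with 6.59 per 100 (3.91 to 10.4) and 4.75 (3.25 to 6.70).

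In the G2/M group most control counts in hepatocyte-like barcodes were at or near 0. The cyclin genes Ccnb1 and Ccnb2, whose products start mitosis with Cdk1, had 1 and 18 UMIs (4.11, 3.03 to 11.1) and 5 and 22 UMIs (3.66, 2.23 to 5.42). Cdk1 had 11 and 25 (2.71, 1.63 to 3.88). Ccna2, a cyclin of S phase and G2, had 4 and 7 (2.33, 0.36 to 4.55) and was the tested G2/M gene without a call. Aurkb, a kinase of chromosome segregation, had 0 and 13 UMIs. With the control count set to the floor of 3 UMIs its log2 ratio was 3.64, and the lower limit of its interval was 3.13. Plk1, another mitotic kinase, had 2 and 9 UMIs (3.11, 1.42 to 6.94), and Aurka, a kinase of the spindle poles, had 1 and 8, under the minimum.

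All 9 genes of spindle, chromosomes and the anaphase-promoting complex were higher in hepatocyte-like barcodes. Birc5, the survivin subunit of the chromosomal passenger complex, had 3 and 35 UMIs (5.07, 3.40 to 7.41), and its partner Cdca8 had 2 and 16 (3.94, 2.44 to 7.69). Top2a, which untangles DNA, had 3 and 33 (4.98, 3.31 to 7.33). The proliferation marker Mki67 had 0 and 14 UMIs and Cenpf had 0 and 17. Against the floor of 3 UMIs their log2 ratios were 3.75 and 4.03, with lower limits of 3.25 and 3.57. Cdc20 and Ube2c, which act with the anaphase-promoting complex, had 5 and 36 UMIs (4.37, 3.02 to 6.08) and 10 and 40 UMIs (3.52, 2.5 to 4.69). Tpx2 and Hmmr, both of spindle assembly, had 1 and 17 (4.03, 2.94 to 11) and 2 and 14 (3.75, 2.21 to 7.51). Hepatocyte-like barcodes held 15.6% of the tetYAP UMIs of Mki67 and 46.2% of those of Ccnb1, and made up 43.3% of all tetYAP UMIs. For Ccnb1, Hmmr and Cdc20 the levels in macrophage-like barcodes were close to the hepatocyte-like ones, at 2.93, 2.20 and 5.86 per 100 against 2.67, 2.08 and 5.34, with overlapping intervals. For Mki67 they were 13.9 (9.85 to 19.1) and 2.08 (1.14 to 3.49).

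The remaining 3 genes are raised in dividing cells but not bound to 1 phase. Stmn1, a regulator of microtubules, had 36 and 80 UMIs in hepatocyte-like barcodes (2.68, 2.09 to 3.29). The chromatin gene Hmgb2 had 65 and 60 (1.41, 0.88 to 1.94). H2afz, a histone variant listed by RefSeq as H2az1, had 1142 and 339 (-0.23, -0.41 to -0.05) and gave 55.2% of the control UMIs of the whole list in these barcodes. Hmgb2 and H2afz have near-identical copies elsewhere in the genome, and their counts are uncertain to that extent.

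Other genes of the same phases followed in part. Of 35 further S phase genes, 25 had enough UMIs in hepatocyte-like barcodes and 2 were higher, with a median log2 ratio of 0.59. Of 40 further G2/M genes 7 of 24 were higher, with a median of 0.98, and of 25 genes of Rb, E2F and checkpoint control 1 of 20, with a median of 0.30. Of all genes 6.86% were higher. No gene of these lists was lower by the 2-fold rule, where 5.62% of all genes were. The 4 most abundant further G2/M genes were not higher by the 2-fold rule. Cks2, which binds the cyclin-dependent kinases, had 442 and 72 UMIs (-1.09, -1.47 to -0.73) and Tubb4b, a tubulin, 1031 and 269 (-0.41, -0.61 to -0.22). Tmpo, of the nuclear lamina, had 171 and 82 (0.46, 0.07 to 0.85) and Jpt1 117 and 72 (0.82, 0.38 to 1.26), so that these intervals lay on both sides of no change. The median of the further G2/M genes over all barcodes was 2.40, with 24 of 37 higher.

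By class, the listed genes were at their highest outside hepatocytes. The class with the highest tetYAP level per barcode was endothelial cell-like for 14 genes, macrophage-like for 10, T or NK cell-like for 5, monocyte or neutrophil-like for 4, stellate or mesenchymal cell-like for 4, and B cell-like and erythroid cell-like for 1 each. Hepatocyte-like was the highest for 0 of the 39. The stellate and B cell-like ranks, 5 in all, rest on 3 UMIs or fewer, and the highest class lay above the next beyond both intervals for 2 genes, so most of these orders are not separated by counting error. The macrophage-like interval lay above the hepatocyte-like one for 24 genes and below it for 0. Levels per barcode depend on depth, and the medians were 6109 UMIs in endothelial cell-like, 4089 in macrophage-like and 4057.5 in hepatocyte-like barcodes. In hepatocyte-like barcodes 55.6% of UMIs were mitochondrial, against 31.1% in macrophage-like ones, so depth in other genes differed more than these medians. The counts of 24 and 0 genes were not made without mitochondrial UMIs.

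**Figure D2:**
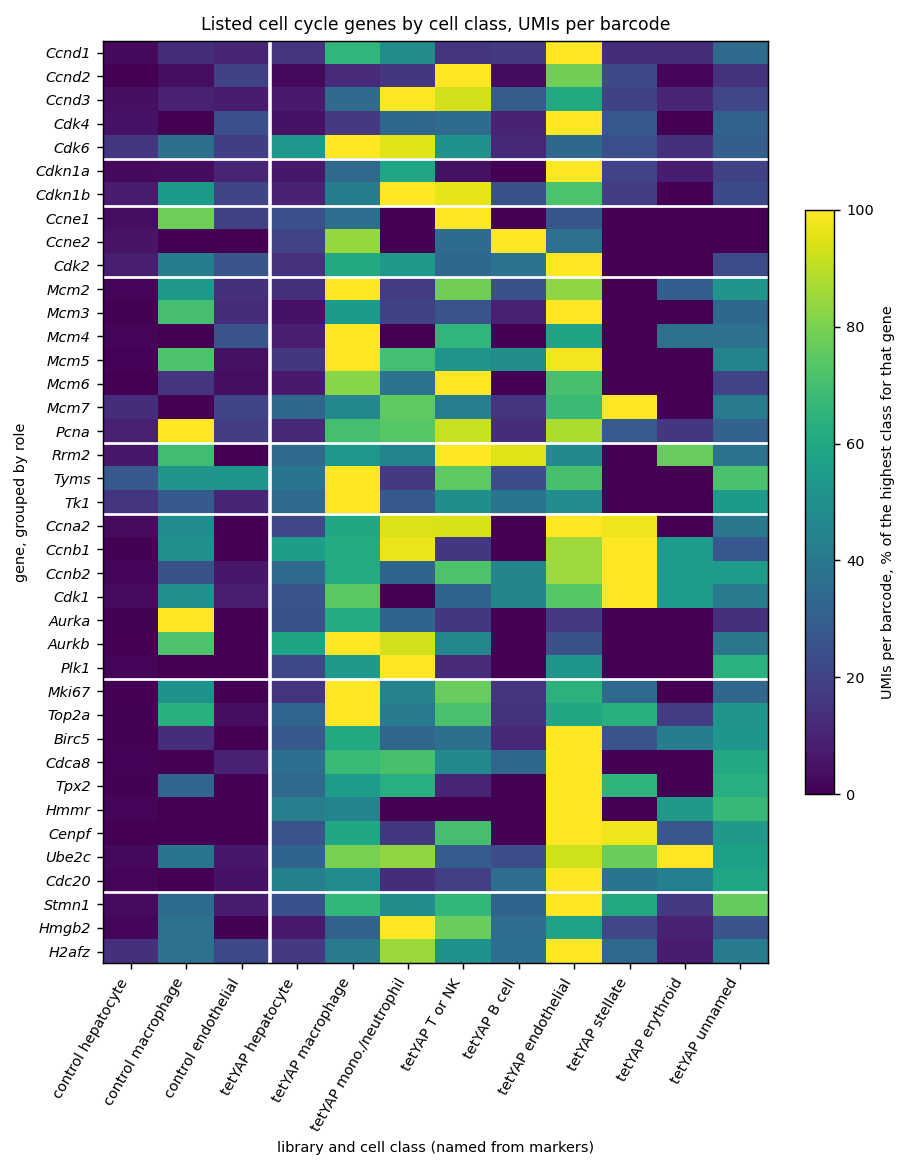
Mean UMIs per barcode of each listed gene (rows, grouped by role) in 3 control classes and all tetYAP 4W classes (columns), as a percent of the highest class shown for that gene. Control hepatocyte-like barcodes are dark in nearly all rows, and the brightest cells of most rows lie in tetYAP macrophage, T or NK, monocyte or neutrophil and endothelial columns. The stellate column rests on 21 barcodes.

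Scaled to depth, S and G2/M transcripts had 1.67 UMIs per 10000 (1.52 to 1.82) in hepatocyte-like tetYAP barcodes and 4.87 (4.48 to 5.29) in macrophage-like ones. B cell-like and erythroid cell-like barcodes together, 84 in all, had 1.63 (1.22 to 2.13). On this total the hepatocyte-like level and that of these barcodes of other classes overlapped. Mitochondrial transcripts took 55.6% of the hepatocyte-like UMIs and 31.0% of those of the 84 barcodes. Per 10000 UMIs without them the levels were 3.76 (3.44 to 4.11) and 2.36 (1.77 to 3.09), which did not overlap. Macrophage-like barcodes then had 7.07 (6.51 to 7.67). Erythroid cell-like barcodes alone, at 2.75 (1.80 to 4.03), overlapped the hepatocyte-like level. B cell-like ones alone, at 2.08 (1.37 to 3.02), did not. Transcripts of other cells in hepatocyte-like barcodes were not tested as a part of these levels. Gene by gene, the hepatocyte-like interval per barcode lay above that of the 84 barcodes for 0 of the 39 genes, and per UMI without mitochondrial ones for 1, Cdk6. A UMI of at least 1 S or G2/M gene was found in 45.7% of hepatocyte-like barcodes, at a median of 4057.5 UMIs, in 47.8% of B cell-like ones, at 3834.5 UMIs, and in 47.4% of erythroid cell-like ones, at 3390 UMIs. In the control the share was 10.6% in hepatocyte-like and 8.93% in stellate or mesenchymal cell-like barcodes, at 3095 and 3221 UMIs. 

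The hepatocyte-like clusters of tetYAP 4W differed among themselves. Cluster 16, with 480 barcodes, had a median mitochondrial share of 61.0% and was led by pancreatic enzyme genes. It had 0.369 S (0.293 to 0.459) and 0.853 G2/M UMIs per 10000 (0.735 to 0.984). Cluster 15, with 115 barcodes and a mitochondrial share of 31.8%, had 0.866 (0.610 to 1.19) and 2.13 (1.71 to 2.61). Cluster 14, with 79 barcodes and a share of 32.9%, had 1.51 (1.12 to 2.01) and 1.45 (1.06 to 1.93). The B cell-like and erythroid cell-like barcodes, pooled, had 0.584 S (0.352 to 0.912) and 1.04 G2/M UMIs per 10000 (0.724 to 1.46). Cluster 14 lay above this pool in S and cluster 15 in G2/M. Cluster 16 lay above it in neither. With the classes taken apart, the B cell-like S interval (0.409 to 1.25) overlapped that of cluster 14. The erythroid cell-like G2/M interval (0.940 to 2.32) overlapped that of cluster 15. Without mitochondrial UMIs the order against the pool held. Cluster 14 then had 2.49 S UMIs per 10000 (1.84 to 3.30) and the 84 barcodes 0.846 (0.509 to 1.32), and cluster 15 had 3.26 G2/M UMIs (2.63 to 4.0) against 1.51 (1.05 to 2.12). Taken apart, the erythroid cell-like G2/M interval (1.37 to 3.39) still overlapped that of cluster 15. The B cell-like S interval (0.589 to 1.81) lay below that of cluster 14. Cluster 16 had 0.975 S (0.774 to 1.21) and 2.25 G2/M UMIs (1.94 to 2.60), overlapping those of the 84 barcodes. G2/M took 48.9% of the S and G2/M UMIs of cluster 14 (38.5 to 59.5), 71.1% of cluster 15 (62.4 to 78.8) and 69.8% of cluster 16 (63.9 to 75.2). In the control hepatocyte-like clusters this share lay between 11.1% and 22.4%, and it was 51.5% in tetYAP macrophage-like barcodes and 80.8% in erythroid cell-like ones. Tyms, Tk1, Mcm7 and Pcna gave most S UMIs of the control hepatocyte-like barcodes, so these control shares rest largely on them. Without cluster 16 the sum of S and G2/M genes in hepatocyte-like barcodes had a log2 ratio of 3.04 in place of 2.20, and 13 of 24 genes were higher, against 11.5% of all genes. The S sum was then 257 and 85 UMIs (1.91, 1.54 to 2.27) and the G2/M sum 50 and 137 (4.96, 4.48 to 5.46), with 2 of 6 S genes and 7 of 7 G2/M genes higher. Ccnd2 lost its call there (1.92, 0.10 to 3.45), Cdk6, Tk1 and Hmgb2 gained one (1.79, 1.79 and 2.34), and the ratio of H2afz was 0.47 in place of -0.23. Aurkb, Mki67, Cenpf, Plk1, Ccnb1, Tpx2 and Hmmr fell under the minimum of 10 UMIs.

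**Figure D3:**
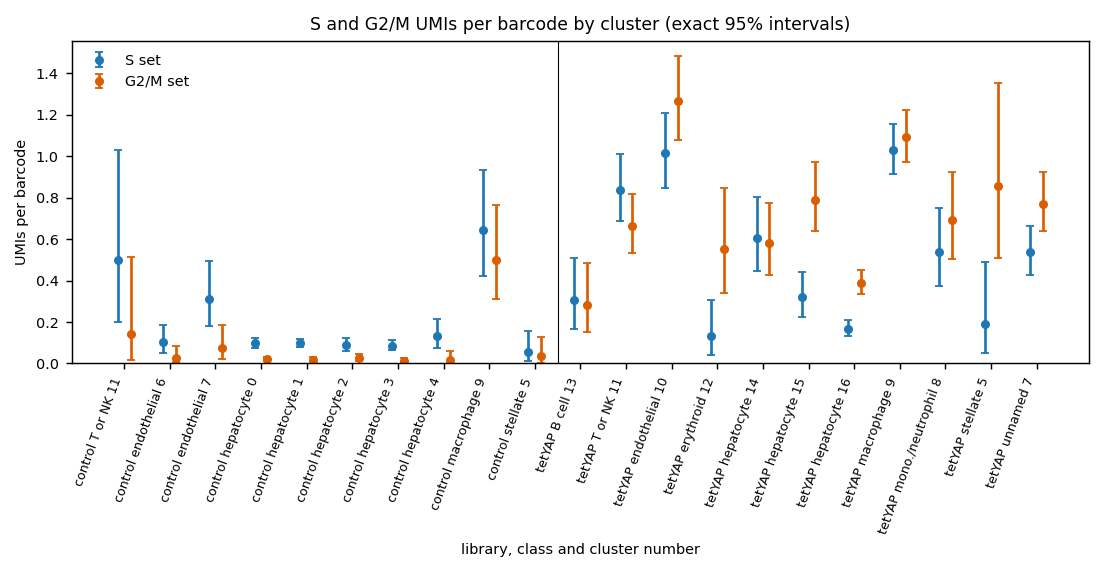
UMIs per barcode of the 10 S genes (blue) and the 16 G2/M genes (orange) in each cluster with at least 10 barcodes, control on the left and tetYAP 4W on the right, with exact 95% Poisson intervals. All 5 control hepatocyte clusters had more S than G2/M UMIs, whereas tetYAP clusters 15 and 16 had more G2/M. Macrophage cluster 9 was raised in both libraries.

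Single barcodes with several cycle genes were counted next. Of the 1524 tetYAP barcodes, 90 (5.91%, 4.78 to 7.21) had UMIs of 4 or more of the 26 S and G2/M genes, against 3 of 2989 in the control (0.1%, 0.0207 to 0.293). All 3 control barcodes were macrophage-like, out of 42 (7.14%, 1.5 to 19.5). In tetYAP 4W macrophage-like barcodes gave 41 of 273 (15%, 11 to 19.8) and hepatocyte-like ones 13 of 674 (1.93%, 1.03 to 3.28). Endothelial cell-like barcodes gave 11 of 123 (8.94%), T or NK cell-like ones 7 of 131 (5.34%), monocyte or neutrophil-like ones 3 of 65 (4.62%) and stellate or mesenchymal cell-like ones 1 of 21. The 84 B cell-like and erythroid cell-like barcodes gave 0, which allows a share of up to 3.57% (3 counts of 84), so that the hepatocyte-like share was not separated from theirs. In control hepatocyte-like barcodes the count was 0 of 2703, which allows up to 0.111% (3 counts of 2703). The 13 barcodes came from all 3 hepatocyte-like clusters, with 4 of 79 in cluster 14, 5 of 115 in cluster 15 and 4 of 480 in cluster 16. Another 17 hepatocyte-like barcodes had exactly 3 genes, and 5 of the 13 had exactly 4.

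**Figure D4:**
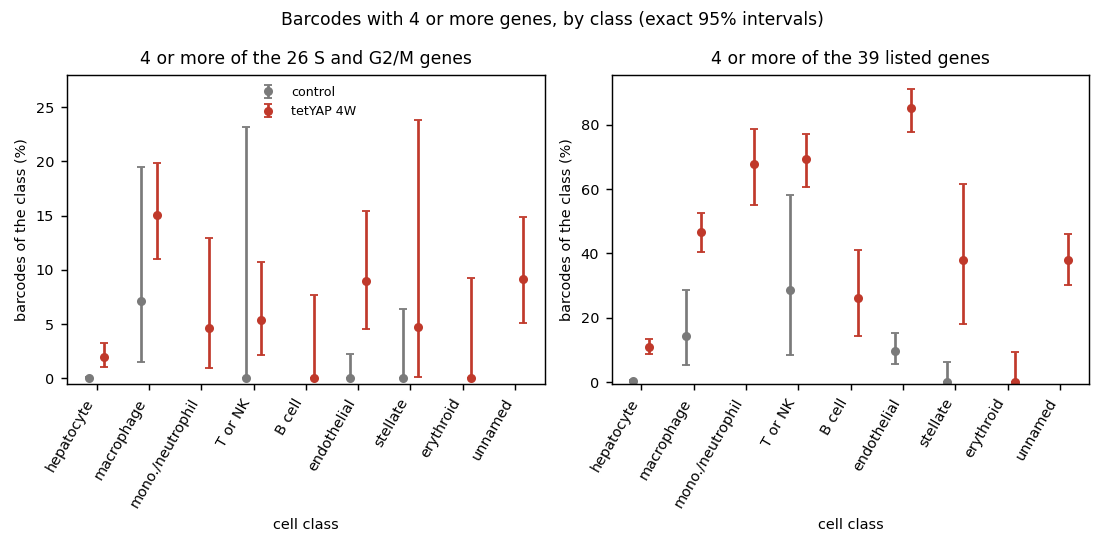
Share of barcodes of each class with UMIs of 4 or more of the 26 S and G2/M genes (left) and of the 39 listed genes (right), control in grey and tetYAP 4W in red, with exact 95% intervals. Classes under 10 barcodes are not drawn. On the left the macrophage class is highest in both libraries, and on the right tetYAP endothelial barcodes are highest, at 85.4%.

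With all 39 genes the ranking changed. Of the tetYAP barcodes 518 had 4 or more listed genes, with 85.4% of endothelial cell-like (77.9 to 91.1), 69.5% of T or NK cell-like (60.8 to 77.2), 46.5% of macrophage-like (40.5 to 52.6) and 10.8% of hepatocyte-like barcodes (8.59 to 13.4). In the control 34 did, of which 16 were endothelial cell-like and 7 hepatocyte-like. Of the 518 barcodes 87 had no S or G2/M UMI at all. The D cyclins, inhibitors and H2afz, which resting cells also carry, enter this count and not the one over 26 genes. After thinning each barcode to 2000 UMIs, 4 or more S and G2/M genes remained in 4.76% of macrophage-like (2.56 to 8.01) and 0.445% of hepatocyte-like tetYAP barcodes (0.0919 to 1.30). At that depth, 2 or more of the 26 genes were found in 5.19% of tetYAP (3.64 to 7.15) and 0.229% of control hepatocyte-like barcodes (0.0841 to 0.498), with 84 shallower control barcodes left out, and in 2 of the 84 B cell-like and erythroid cell-like ones (2.38%, 0.290 to 8.34). The share was 12.9% (8.52 to 18.4) in clusters 14 and 15 and 2.08% (1.0 to 3.80) in cluster 16. Erythroid cell-like barcodes alone, with 2 of 38 (5.26%, 0.644 to 17.7), overlapped clusters 14 and 15, and B cell-like ones gave 0 of 46 (up to 6.52%). Thinning counted mitochondrial UMIs, which took 62.1% in cluster 16 and 36.6% in clusters 14 and 15. Depth in other genes was thus not equal. Per 10000 UMIs without mitochondrial ones, S and G2/M levels were 3.22 (2.85 to 3.63) and 4.71 (4.11 to 5.37).

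How the transcripts were spread over barcodes differed between classes. The 41 macrophage-like barcodes held 62.9% of the S and G2/M UMIs of their class, whereas the 13 hepatocyte-like ones held 16.9%. The ratio of variance to mean of these UMIs over barcodes, which is 1 for random counting at equal depth, was 5.95 in macrophage-like, 8.60 in T or NK cell-like and 1.90 in hepatocyte-like tetYAP barcodes. It was 0.877 in B cell-like, 1.11 in erythroid cell-like and 1.03 in control hepatocyte-like barcodes. For the T or NK cell-like value, 1 barcode held 10 of the 110 S UMIs and 27 of the 87 G2/M UMIs of the class. The 13 hepatocyte-like barcodes had a median of 4237 UMIs, 389 hepatocyte marker UMIs and 3 macrophage marker UMIs, against 4054, 375 and 3 in the other hepatocyte-like barcodes. Their endothelial markers were at a median of 0 and their T or NK cell markers at 0 throughout. Their mitochondrial share had a median of 32.9%, against 58.3%.

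Assigned by whichever set was larger relative to its tetYAP total, 42 of the 90 barcodes were S and 48 G2/M (53.3%, 42.5 to 63.9). Macrophage-like barcodes split into 21 S and 20 G2/M, hepatocyte-like ones into 5 and 8, endothelial cell-like ones into 5 and 6, and T or NK cell-like ones into 5 and 2. UMIs of both sets were present in 64 of the 90, and 16 lay near a tie, with 40 to 60% of the scaled sum from S genes. The assignment is therefore a range and not a cell type. Among the 44 barcodes with 6 or more genes, 72.7% were G2/M (57.2 to 85.0). In the 13 hepatocyte-like barcodes Ccnb1 and Top2a were the most widespread, in 6 barcodes each, followed by Birc5, Cdca8, Tpx2, Ube2c and Mcm5 in 5 each, while Ccna2 and Mcm6 were in 0. In the 41 macrophage-like ones Top2a was in 20, Cdk1, Birc5 and Ube2c were in 17 each and Mcm5 in 16, while Ccnb1 was in 4. The highest barcode was macrophage-like, with 16 of the 26 genes, and the highest hepatocyte-like one had 10.

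**Figure D5:**
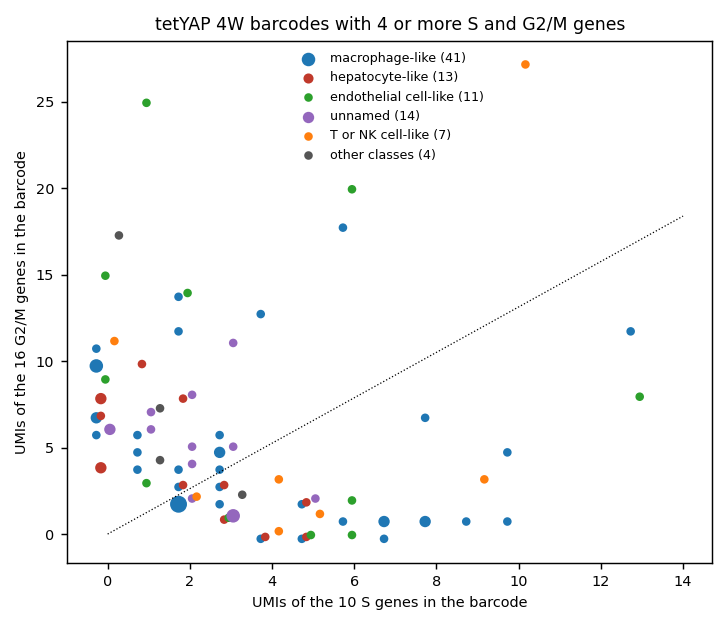
UMIs of the 10 S genes (horizontal) and of the 16 G2/M genes (vertical) in each of the 90 tetYAP 4W barcodes with 4 or more of these genes, coloured by class. Points are shifted slightly by class to keep them apart, larger points hold several barcodes, and the dotted line is the ratio of the library totals that divides S from G2/M. Barcodes of most classes lie on both sides of the line, and the 13 hepatocyte-like ones stay at or under 5 S and 10 G2/M UMIs.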

How the data were processed

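Droplet 3′ single-cell RNA-seq of perfused liver was analysed from 1 control and 1 tetYAP 4W library. The authors deposited raw counts, as whole UMIs per gene and barcode, made with Cell Ranger against mm10 per the labels. Per the methods of the study, each condition was down-sampled to the same number of cells and those above a UMI limit were removed. The highest barcode held 7493 UMIs. In the counts used here 2989 control and 1524 tetYAP barcodes were left. The limit may thus have taken many more tetYAP than control barcodes, and shares and medians describe only the barcodes kept. Seurat 3 is also named in the submitters' processing notes. All 4513 barcodes and 31053 genes were used. The members and lists were chosen with earlier results of these data known.

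Barcodes were clustered with scanpy 1.11.5 (2000 variable genes without the listed and related cell cycle genes, 20 components, 15 neighbours, Leiden resolution 0.8). A cluster was named, in each library apart, where 3 or more markers reached 10 UMIs and 3-fold over the other barcodes of that library. A cluster with more markers of another class among its 10 leading genes was left unnamed. Clusters of no class were called hepatocyte-like, or left unnamed where markers of another class were raised, and parts under 10 barcodes took the name of the larger part. Names rebuilt in this way can differ from those of the study. No doublet caller was run, and doublets were not removed. All 39 genes were named.

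UMIs were summed per library and class and scaled to CPM. Ratios have exact conditional binomial intervals, sums exact Poisson and shares exact Clopper-Pearson intervals, at 95%, which cover counting error only. Counts under 3 were set to 3 in ratios. For a share of 0 the limit given is 3 counts of the total. The ratio function was tested on simulated data. Promoters came from RefSeq on GRCm38.p6, the assembly mm10 names, and another mouse assembly at hand, of an older build, was not used. Alternatives were totals scaled by TMM factors (edgeR 4.0.16, no test run), totals without mitochondrial and the 50 most abundant genes, an offset of 0.5 UMIs, other minimum counts, gene numbers, depths, clusterings and mitochondrial limits. Leaving out cluster 16, or the control macrophage-like barcode with the most S and G2/M UMIs, was chosen after seeing the data. Python 3.11.15 and R 4.3.3 were used.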

Additional observations from a re-analysis of the deposited data

Results flagged for a closer look

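The 153 tetYAP 4W barcodes left without a class name, which the comparisons by class do not use, held cell cycle transcripts. Of these barcodes 9.15% (5.09 to 14.9) had UMIs of 4 or more S and G2/M genes, above the 0.1% of all control barcodes. Those control barcodes were 90.4% hepatocyte-like, however. In the control part of the same cluster 0 of 55 barcodes had so many genes, with an exact upper limit of 6.49%. The 2 intervals overlapped, so the share was not separated from that of its control part. They were led by the platelet genes Ppbp, Gp9 and Pf4 and had 9.65 endothelial marker UMIs per barcode. Of the 14 barcodes 5 were assigned to S and 9 to G2/M.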

How the results depend on the processing

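Of 74 recomputed values 38 moved by more than the counting interval (for counts, by over 1.5 times) and none reversed. The count of higher genes in hepatocyte-like barcodes, 18 of 34, was 10 of 21 without barcodes over 30% mitochondrial, which left 1676 control and 85 tetYAP barcodes and called 13.7% of all genes, and 3 of 14 at a minimum of 50 UMIs, where 4.1% of all genes were called. The log2 ratio of the S and G2/M sum there, 2.20, was 2.80 with totals without mitochondrial and the 50 most abundant genes, 3.44 without barcodes over 30% mitochondrial, 1.98 with cell cycle genes kept for clustering and 3.04 without cluster 16. Over all barcodes it was 2.69, with 2.13 under TMM factors and 3.06 without barcodes over 30% mitochondrial. In macrophage-like barcodes the S and G2/M ratios of 0.43 and 0.88 were 1.42 and 2.40 without 1 control barcode. The median of all genes in hepatocyte-like barcodes was -0.21, and 0.39 with totals without mitochondrial and abundant genes, 1.09 under the mitochondrial limit and 0.69 without cluster 16.

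The hepatocyte-like share with 4 or more listed genes, 10.8%, was 2.52% and 0.148% at 2000 and 1000 UMIs, 24.5% and 2.08% at 3 and 6 genes, 35.3% without barcodes over 30% mitochondrial, 7.49% with cell cycle genes kept and 24.2% without cluster 16. The macrophage-like share, 46.5%, was 19.4% and 6.59% after thinning, 63.4% and 25.3% at 3 and 6 genes, 60.3% under the mitochondrial limit and 63.8% at resolution 1.2. For S and G2/M genes the hepatocyte-like share, 1.93%, was 0.445% and 0.148% after thinning, 4.45% and 0.593% at 3 and 6 genes, 5.88% under the mitochondrial limit and 4.64% without cluster 16. The macrophage-like 15% was 4.76% and 1.83% after thinning, 22.0% and 7.33% at 3 and 6 genes and 21.4% under the mitochondrial limit. S and G2/M UMIs per 10000 in hepatocyte-like barcodes, 1.67, were 1.41 with cell cycle genes kept and 3.76 without mitochondrial UMIs, and the macrophage-like 4.87 was 7.07. The G2/M share of barcodes, 53.3%, was 72.7% at 6 or more genes.

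At resolution 0.4 no macrophage-like tetYAP class was formed, so that those values could not be given. The cause of these shifts was not tested, except that thinning and stricter gene numbers lower a share by construction. With 1 library per group the spread between animals is unknown, and the sex of the animals, the depth and the mitochondrial share differ along with the genotype. At these counts a gene with under 10 UMIs could not be compared. No paired analysis was possible because each group holds 1 library.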
